A study of Mus musculus with 9 samples.

Results

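Vesicles prepared from brain after status epilepticus (SE-BDEV) were compared directly with vesicles from control brain (CON-BDEV) by the RNA of the cultured mouse cells that received them. There were 3 libraries from cells treated with SE-BDEV and 3 from cells treated with CON-BDEV, out of 9 in the series. The remaining 3 came from cells given Vehicle and served here only as a reference level. The deposited tables listed 24318 genes in FPKM, a count of fragments scaled to transcript length and library size. The description covers the 10525 genes that averaged 1 FPKM or more in the 6 vesicle libraries, and the ferritin genes Fth1 and Ftl1 were left out because their estimates had failed for too many fragments. At this limit Zfp456 (1.00 FPKM) lay just inside and Zfp30 (0.998 FPKM) just outside.

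The labels give 1 cell line for all libraries, name no genetic change and state polyA selection. The labels call the vesicle libraries EV Saline for the control preparation and EV Pilo for the status epilepticus preparation, followed by a code that starts with 1 or 2. They give neither dose nor time, and not how many brains stood behind each preparation. Nor do they say whether replicates were grown apart, so p-values here rest on a spread between libraries that may be technical. The series' design names the microglial line BV2, but the cell line label of each library names the neuroblastoma line N2a. Of 30 microglia and macrophage markers, 26 to 27 reached 1 FPKM in each of the 6 libraries. Of 30 neuroblastoma and neuronal markers, 5 did. The means of these 5 over the 6 libraries began at 3.56 FPKM (Gata3), and the highest were Nefh (75.3 FPKM) and Uchl1 (98.5 FPKM). Nefh shares its listed locus with Ap1b1 and Uchl1 with Uchl1os, so both values are uncertain. Another 11 of the 30 were listed at 0 in all 6, among them the defining neuroblastoma genes Th, Dbh and Mycn. Among defining microglial receptors, P2ry12 reached at most 0.0421 FPKM and Cx3cr1 at most 0.201 FPKM.

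Microglia are the resident macrophages of the brain. They take up debris and vesicles, sense damage, and release cytokines and chemokines. Extracellular vesicles are membrane-bound particles that carry protein, lipid and RNA from 1 cell to another. Status epilepticus is a state of prolonged seizures, after which microglia in the brain are known to become activated. The comparison therefore asked whether vesicles from a brain after prolonged seizures left a different mark on the cells' RNA than vesicles from a control brain.

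They left none that passed the test. With limma on log2(FPKM + 1), 0 of 10525 genes (0%) had an adjusted p under 0.05, and the lowest adjusted p was 0.247, shared by Rpp21 and Cox7a1. Before adjustment, 351 genes (3.33%) had a p under 0.05, of which 86 were higher (0.817%) and 265 lower (2.52%) with SE-BDEV. After quantile normalization 38.0% of the genes at this limit were higher, against 24.5% in the values as deposited. The groups did not overlap in 834 genes (7.92%), 287 higher (2.73%) and 547 lower (5.2%). With 3 libraries against 3, the smallest p of an exact permutation test on a single gene is 0.1, so limma's spread, pooled over genes, carries the single-gene tests.

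The intervals say what size of difference these libraries leave room for. The 95% interval of the difference lay within 1.5-fold in either direction for 10424 genes (99.0%) and within 1.2-fold for 8312 (79.0%), on the log2(FPKM + 1) scale, which understates the differences of genes with low values. With 0.1 FPKM added in place of 1 FPKM, 10183 genes (96.8%) lay within 1.5-fold. Of the 6806 genes that averaged 10 FPKM or more, where that scale matters little, 6778 (99.6%) lay within 1.5-fold and 6081 (89.3%) within 1.2-fold. The median interval reached 0.15 on either side of its estimate on the log2 scale. The middle 90% of estimated differences ran from -0.12 to 0.10, with a median of -0.0045. Only 9 genes had an estimate of at least 1 in absolute value, and 6 of these were listed at 0 in some of the 6 libraries.

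**Figure D1:**
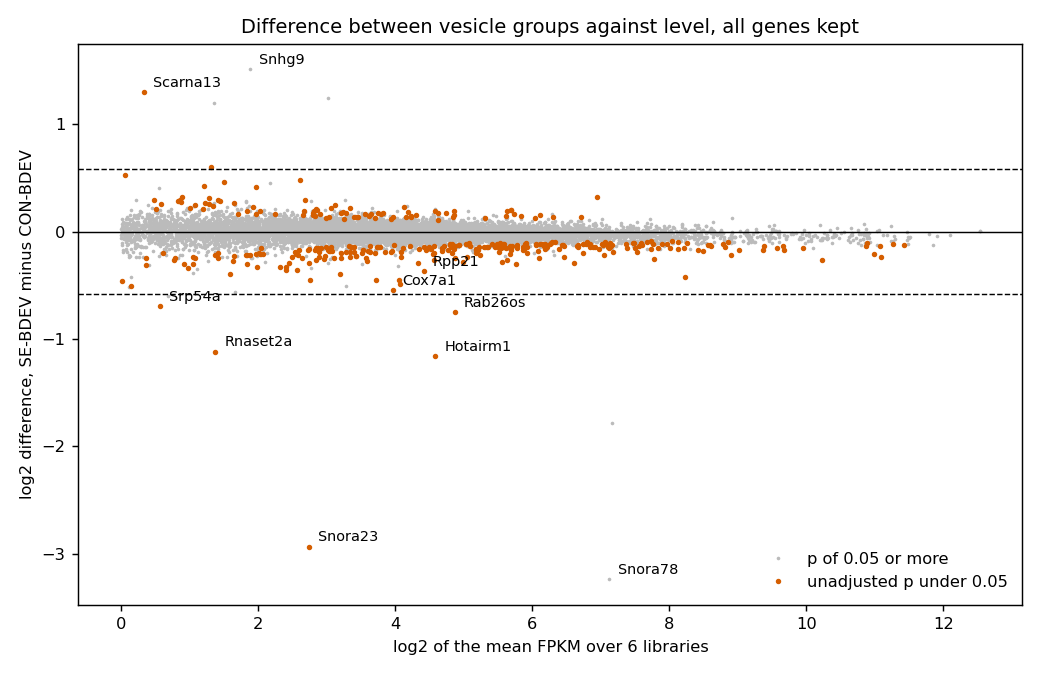
Difference between the vesicle groups (log2, SE-BDEV minus CON-BDEV) against the log2 mean FPKM of each of the 10525 genes, with 1 point per gene. Dashed lines mark 1.5-fold in either direction, orange points have an unadjusted p under 0.05, and 13 genes lie at or beyond the dashed lines; none passed the adjusted threshold.

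As whole profiles, libraries of different vesicle groups lay no farther apart than libraries of 1 group. The Euclidean distance over log2(FPKM + 1) of all genes kept ran from 13.7 to 21.6 (median 16.8) over the 9 pairs of 1 CON-BDEV and 1 SE-BDEV library. Within CON-BDEV the 3 pairs ran from 16.4 to 21.5 (median 20.5) and within SE-BDEV from 14.6 to 17.9 (median 17.3). Distances to Vehicle were 18.0 to 24.1 (median 21.8) for CON-BDEV and 18.8 to 23.6 (median 21.2) for SE-BDEV. CON-BDEV replicate 1 lay farthest from the other vesicle libraries, with a mean distance of 19.8, and SE-BDEV replicate 2 nearest, with 16.1. The small nucleolar RNA Snora78, listed at 836 FPKM in CON-BDEV replicate 1 and at 0 in all other libraries, adds to each distance of that replicate. How much of the spread within CON-BDEV comes from such entries was not tested. These pairs share libraries, so the distances are given as a description.

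**Figure D2:**
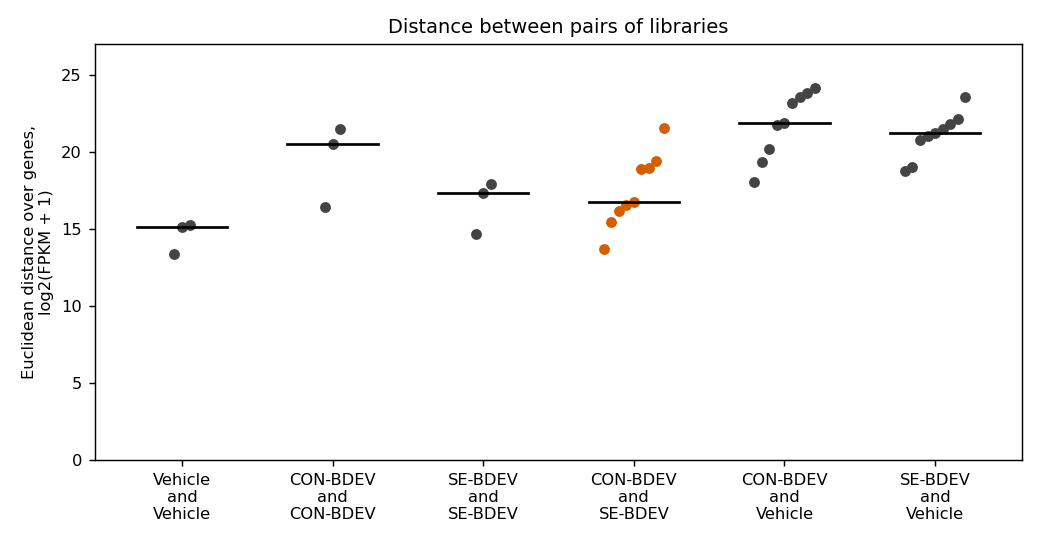
Euclidean distance between each pair of libraries over log2(FPKM + 1) of the genes kept, grouped by the groups of the pair, with 1 point per pair and a line at the median. The 9 pairs across vesicle groups (orange, median 16.8) overlap the pairs within CON-BDEV (median 20.5) and within SE-BDEV (median 17.3) and have a lower median than the pairs with Vehicle.

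The libraries were close in summed FPKM and in estimated depth. Summed FPKM without the ferritins ran from 600635 to 613894 in CON-BDEV and from 586035 to 595864 in SE-BDEV. Every SE-BDEV library thus lay below every CON-BDEV library. FPKM is already scaled to library size, so this sum does not measure size. By library, 10486 to 10522 genes reached 1 FPKM. The files hold no counts, so depth was estimated from the steps between low values, which gave 29216000 fragments (CON-BDEV replicate 2) to 32963000 (CON-BDEV replicate 3). These rest on the median of 26 genes, whose own estimates for CON-BDEV replicate 1 ran from 5368118 to 32385819, so they are rough. For 2 kb of exons, 1 FPKM then stands for 58.4 to 65.9 fragments.

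The genes with the lowest p among those whose groups did not overlap are described next, although their adjusted p did not pass. Their lack of overlap was thus set by the choice. Rpp21, a protein subunit of the ribonuclease P complex that trims transfer RNA precursors (mm9 chr17:36392618-36394791), stood at 24.1, 24.3 and 24.1 FPKM in CON-BDEV replicates 1, 2 and 3 and at 19.0, 18.5 and 18.0 FPKM in SE-BDEV. The groups did not overlap, and Vehicle averaged 22.9 ± 3.07 FPKM (SD, n = 3). The log2 difference was -0.37 (95% interval -0.47 to -0.26, limma adjusted p = 0.247).

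Cox7a1, an isoform of a cytochrome c oxidase subunit best known from muscle (mm9 chr7:30969190-30971049), stood at 18.2, 19.8 and 18.3 FPKM in CON-BDEV and at 11.4, 12.4 and 14.0 FPKM in SE-BDEV, again without overlap. Its log2 difference was -0.54 (interval -0.71 to -0.38, limma adjusted p = 0.247), and Vehicle averaged 14.7 ± 2.20 FPKM. Srp54a, which encodes a subunit of the signal recognition particle, was at 1.88, 2.12 and 2.17 FPKM in CON-BDEV and at 0.773, 1.14 and 0.769 FPKM in SE-BDEV (log2 difference -0.70, limma adjusted p = 0.284). The authors' deposited table gave Srp54a a log2 fold change against Vehicle of -0.01 for CON-BDEV (q = 0.995) and -1.21 for SE-BDEV (q = 0.00196). Both comparisons use the same Vehicle libraries. The value for Srp54a is uncertain, since its listed locus is shared with near-identical copies between which fragments can be split.

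Hotairm1 (mm9 chr6:52108523-52112019) is a non-coding RNA of the HOXA gene cluster that is expressed in myeloid cells. On the log2(FPKM + 1) scale it had the largest difference among genes detected in all 6 libraries whose groups did not overlap. Over the other settings Rnaset2a reached -1.73 and Hotairm1 -1.35, so this rank depends on the setting. Hotairm1 stood at 31.4, 28.0 and 40.7 FPKM in CON-BDEV and at 10.7, 14.1 and 18.9 FPKM in SE-BDEV. Vehicle was at 15.8, 13.4 and 6.64 FPKM, so SE-BDEV overlapped Vehicle and CON-BDEV lay above both. The log2 difference between vesicle groups was -1.16 (interval -1.58 to -0.73), a ratio of 0.448 on that scale, with a limma adjusted p of 0.443. Against Vehicle the authors' deposited table gave Hotairm1 a log2 fold change of 1.49 for CON-BDEV (q = 0.0557) and 0.29 for SE-BDEV (q = 0.882). The difference was -1.47 between the libraries whose code starts with 1, only 1 in each vesicle group. It was -1.01 between the group means of those whose code starts with 2.

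The 12 genes so chosen on the lower side held 3 further non-coding RNAs. Snhg7, a host gene of small nucleolar RNAs that share its locus, was at 13.5, 16.6 and 15.7 FPKM in CON-BDEV and at 12.5, 10.2 and 10.1 FPKM in SE-BDEV (log2 difference -0.45, limma adjusted p = 1.00). Rab26os, an antisense transcript at the Rab26 gene, was at 38.4, 37.2 and 33.9 FPKM against 24.0, 15.1 and 26.5 FPKM (-0.75), and Bvht, a long non-coding RNA studied in heart development, averaged 19.3 ± 1.098 against 13.9 ± 1.96 FPKM (-0.45). By that choice the vesicle groups overlapped in none of these 3. The authors' deposited table had Snhg7 higher than Vehicle with CON-BDEV (log2 fold change 0.61, q = 0.00245) and at 0.12 with SE-BDEV (q = 0.793). The kit marks strand, but the sources used here do not say whether the authors' counting used it, so Rab26os and its partner may not be told apart. Bvht shares its listed locus with Mir143, Mir143hg and Mir145a, so its value is uncertain too. These RNAs were picked by their p and their lack of overlap. The list of nuclear and host non-coding RNAs showed no common direction: of 12 kept genes 5 were below 0, and the median was 0.01. In it Snhg8 (-0.27) was lower and Xist (0.19) higher at an unadjusted p under 0.05.

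Of the other genes among these 12, 4 had differences within 1.5-fold and Rnaset2a a larger one. Coprs, a partner of the arginine methyltransferase PRMT5, stood at 34.7, 33.0 and 37.6 FPKM in CON-BDEV and at 28.6, 28.0 and 29.2 FPKM in SE-BDEV (log2 difference -0.28). Malsu1, an assembly factor of the mitochondrial ribosome, differed by -0.23, Dph5, an enzyme of diphthamide synthesis, by -0.20, and Myoz1, a sarcomere protein, by -0.33. Rnaset2a, a lysosomal ribonuclease, was at 3.41, 4.14 and 3.92 against 0.318, 1.99 and 1.76 FPKM (-1.12), but its locus is shared with its copy Rnaset2b, so this value is uncertain. By the same choice none of these 5 genes overlapped between groups, and each had a limma adjusted p of 1.00.

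Among genes that were higher with SE-BDEV, Zfp467, a zinc finger protein (mm9 chr6:48377691-48395824), was at 3.70, 3.08 and 2.86 FPKM in CON-BDEV and at 5.03, 4.39 and 4.44 FPKM in SE-BDEV (log2 difference 0.42, interval 0.21 to 0.62). Bola3, a mitochondrial factor for the assembly of iron-sulfur clusters, was at 45.4, 50.4 and 48.3 FPKM against 54.4, 54.9 and 56.6 FPKM (0.20). Both had a Vehicle mean above CON-BDEV, 4.03 FPKM for Zfp467 and 59.0 FPKM for Bola3. Ugt1a6b, a glucuronosyltransferase of detoxification, stood at 4.95, 4.04 and 5.76 against 8.46, 7.01 and 6.31 FPKM (0.48), above the Vehicle mean of 3.27 FPKM in both groups, but it shares its locus with the other genes of the Ugt1a cluster and is uncertain. Ms4a6c, a membrane protein of myeloid cells, averaged 1.57 ± 0.0495 in CON-BDEV and 2.10 ± 0.192 FPKM in SE-BDEV (0.27), with Vehicle at 1.06 FPKM. Ago3, an Argonaute protein of small RNA silencing, differed by 0.28, Morn2, whose locus is shared with Dhx57, by 0.29, Dmpk, the kinase gene of myotonic dystrophy, by 0.23, Wnk1, a kinase of ion transport, by 0.15 and Lmbrd2 by 0.17. Each of these had a limma adjusted p of 1.00.

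Of the genes named in that direction, the lowest p belonged to Scarna13, a small RNA of Cajal bodies that lay near the floor of the data. It stood at 1.104 FPKM in CON-BDEV replicate 1, was listed at 0 in CON-BDEV replicates 2 and 3, and was at 2.39, 2.13 and 1.95 FPKM in SE-BDEV. Its limma adjusted p was 1.00 over all 6 libraries. It passed without CON-BDEV replicate 1 (limma adjusted p = 0.00183) and among the libraries whose code starts with 2 (limma adjusted p = 0.0156). Both fits leave only CON-BDEV replicates 2 and 3, so only zeros, in the control arm. In Vehicle it was listed at 0 in replicates 1 and 3 and at 1.81 FPKM in replicate 2, and its locus is shared with Snhg10.

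**Figure D3:**
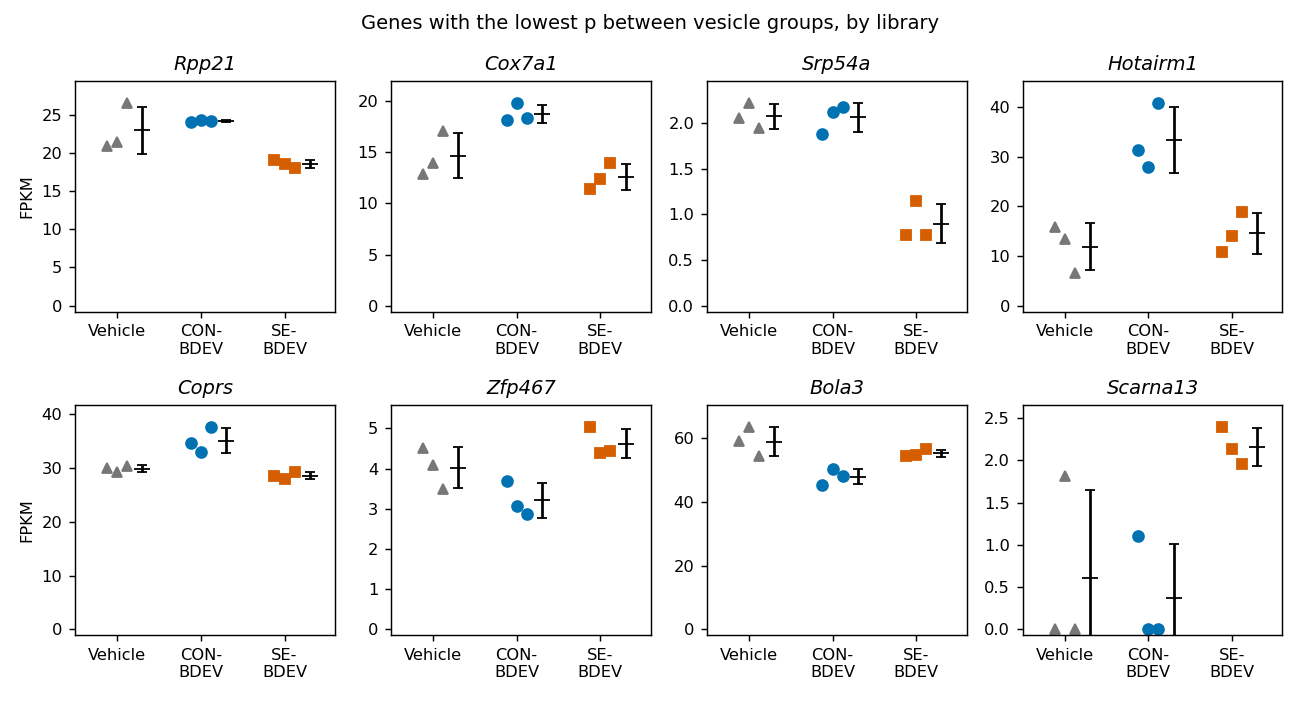
FPKM in each library of 8 genes among those with the lowest p between vesicle groups, with Vehicle (grey triangles), CON-BDEV (blue circles) and SE-BDEV (orange squares); bars give the mean ± SD of 3 libraries. Hotairm1 lies at 28.0 to 40.7 FPKM in CON-BDEV and at 10.7 to 18.9 FPKM in SE-BDEV, and for Scarna13 2 of the 3 CON-BDEV libraries are listed at 0.

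The genes by which vesicle libraries stand apart from Vehicle were compared next. NRF2 is a transcription factor that turns on antioxidant and detoxifying genes when the sensor KEAP1 is modified by reactive compounds, through a short DNA motif, the antioxidant response element. Its core, TGACNNNGC, was searched on both strands of the 250 bases before the start of genes (RefSeq, GRCm38.p6). It was found in 3338 of 32851 promoters (10.2%) and in 7 of the 35 promoters that belong to 26 kept genes of the NRF2 list. Shown here are 3 of these 7 whose levels are given below, as they lie on the gene's strand, with the motif, on the opposite strand in each, in capitals.
Gclm (chr3:122245393-122245461): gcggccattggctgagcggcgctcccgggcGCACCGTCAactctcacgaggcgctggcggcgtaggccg
Prdx1 (chr4:116685436-116685504): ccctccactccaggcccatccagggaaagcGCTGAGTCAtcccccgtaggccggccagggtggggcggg
Txnrd1 (chr10:82859084-82859152): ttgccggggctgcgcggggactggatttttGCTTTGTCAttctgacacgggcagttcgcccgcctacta
A match describes the letters only, and is not evidence of binding.

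Gclm, the modifier subunit of glutamate-cysteine ligase in glutathione synthesis, stood at 197, 125 and 220 FPKM in CON-BDEV, at 166, 181 and 217 FPKM in SE-BDEV and at 39.9 to 43.8 FPKM in Vehicle. The vesicle groups overlapped, and both lay above Vehicle in every library. The log2 difference between them was 0.09 (interval -0.33 to 0.51). Against Vehicle the authors' deposited table gave Gclm log2 fold changes of 2.10 for CON-BDEV (q = 0.00245) and 2.16 for SE-BDEV (q = 0.00196).

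Other NRF2 genes gave the same picture. Nqo1, a quinone reductase, was at 9.85, 4.73 and 10.6 FPKM in CON-BDEV and at 7.51, 8.14 and 11.2 FPKM in SE-BDEV (0.13, interval -0.43 to 0.70), though the locus listed for it spans more than 1 gene. Hmox1, which breaks down heme, was at 578, 260 and 569 against 391, 417 and 681 FPKM (interval -0.57 to 0.82), so these libraries do not settle its direction: over 20 alternative settings its difference ran from -0.25 to 0.47. Slc7a11, the cystine importer, averaged 24.8 ± 6.46 in CON-BDEV and 26.7 ± 3.56 FPKM in SE-BDEV (0.12), against 6.13 FPKM in Vehicle.

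The enzymes that use and recycle thiols were tighter. Prdx1, a peroxidase, stood at 1949, 1575 and 2079 FPKM in CON-BDEV and at 1825, 1867 and 1975 FPKM in SE-BDEV (0.03, interval -0.18 to 0.23), and Txnrd1, which reduces thioredoxin, averaged 164 ± 19.1 and 162 ± 16.5 FPKM (-0.02). Of the 34 genes in the list 32 were kept, and none had an unadjusted p under 0.05, beside 3.33% of all genes. The median log2 difference was 0.03, beside -0.0045 over all genes. Without CON-BDEV replicate 2 the median was -0.07 and without SE-BDEV replicate 3 -0.02, so its sign rests on single libraries. Within the control group CON-BDEV replicate 2 stood apart in this list, with the lowest value of the 6 libraries for Nqo1, Gclm, Hmox1, Prdx1 and Txnrd1. Its median deviation over the list was -0.19, against 0.06 and 0.12 in CON-BDEV replicates 1 and 3 and -0.03 to 0.07 in SE-BDEV.

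Sterol and fatty acid synthesis is controlled by SREBP transcription factors, which are held back when cells have enough cholesterol. Insig1, the protein that retains them in the endoplasmic reticulum and is itself a target, was at 44.3, 49.99 and 35.5 FPKM in CON-BDEV and at 29.4, 44.6 and 46.9 FPKM in SE-BDEV, with Vehicle at 78.4 ± 1.08 FPKM. The vesicle groups overlapped below Vehicle, with a log2 difference of -0.11 (interval -0.51 to 0.28). Scd2, a fatty acid desaturase, was at 371, 359 and 266 against 298, 326 and 349 FPKM (-0.02), with Vehicle at 595 FPKM. The farnesyl diphosphate synthase Fdps differed by -0.10. The member with the lowest p was Tm7sf2, a sterol reductase (-0.24, interval -0.54 to 0.06). Of 35 listed genes 29 were kept, and none had an unadjusted p under 0.05, beside 3.33% of all genes. The median difference was -0.02 (-0.11 to 0.11 over the other settings). Among LXR targets, which export lipid, Abca1 differed by 0.03 and Apoe by -0.01, and 0 of 15 kept genes had an unadjusted p under 0.05.

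**Figure D4:**
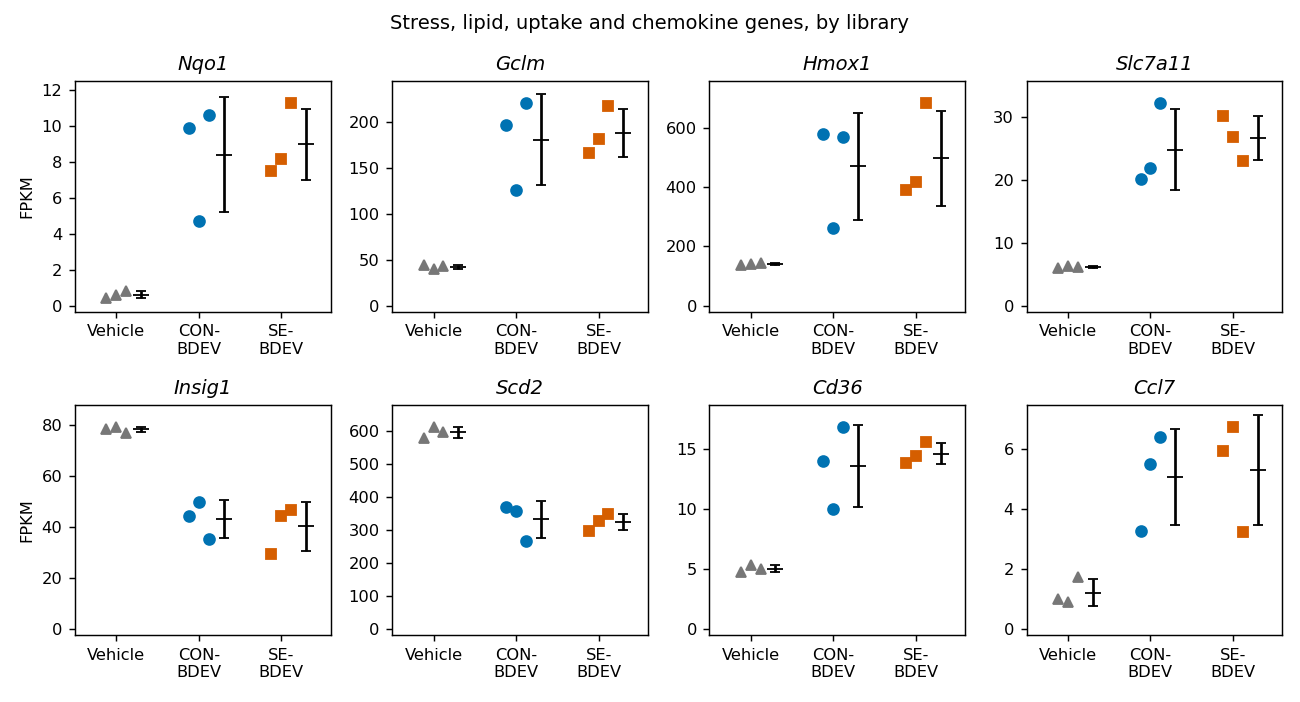
FPKM in each library of 8 genes of antioxidant defence, lipid synthesis, uptake and chemokines, with Vehicle (grey triangles), CON-BDEV (blue circles) and SE-BDEV (orange squares); bars give the mean ± SD of 3 libraries. In each panel the 2 vesicle groups overlap, and both lie on the same side of Vehicle.

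Cytokines and chemokines, the signals by which activated microglia call other cells, did not separate the preparations either. Tnf stood at 8.99, 10.7 and 9.32 FPKM in CON-BDEV and at 8.54, 9.29 and 8.80 FPKM in SE-BDEV (-0.11, interval -0.27 to 0.05). Il1b stood at 7.29, 6.80 and 5.41 against 7.79, 6.76 and 7.92 FPKM (interval -0.05 to 0.42), and Il6 was listed at 0 in all 6. The authors' deposited table had Il1b at 0.33 over Vehicle with CON-BDEV (q = 0.205) and at 0.53 with SE-BDEV (q = 0.00196), but the direct comparison did not tell the groups apart. Of 26 kept genes of inflammatory cytokines and NF-kB, 0 had an unadjusted p under 0.05. Over all genes 3.33% did, so a count of 0 in a list this small says little about its members.

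The monocyte attractant Ccl7 was at 3.29, 5.53 and 6.43 FPKM in CON-BDEV and at 5.95, 6.74 and 3.26 FPKM in SE-BDEV (0.05, interval -0.51 to 0.61). The low library of each group, CON-BDEV replicate 1 and SE-BDEV replicate 3, was low for Ccl2 too, at 40.05 and 40.5 FPKM where the other 4 stood at 50.2 to 54.9 FPKM. Ccl2 differed by -0.01, Ccl3 by -0.03, Ccl4 by -0.07 and Ptgs2, the inducible cyclooxygenase, by 0.13. Of 25 chemokines and receptors only 9 were kept, and 0 of these had an unadjusted p under 0.05, beside 3.33% of all genes.

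Il18, a cytokine matured by the inflammasome (mm9 chr9:50373473-50389942), was the member with the lowest p in its list. It stood at 4.01, 4.196 and 3.90 FPKM in CON-BDEV and at 2.84, 3.20 and 3.28 FPKM in SE-BDEV, without overlap, and at 3.43, 4.77 and 4.02 FPKM in Vehicle. Its log2 difference was -0.30 (interval -0.46 to -0.13, limma adjusted p = 1.00). It was the only 1 of 14 kept inflammasome genes with an unadjusted p under 0.05, beside 3.33% of all genes. The sensor Nlrp3 differed by -0.02 and the protease Casp1 by -0.06.

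Receptors for uptake were close. Cd36, a scavenger receptor for oxidised lipid, stood at 14.0, 10.02 and 16.8 FPKM in CON-BDEV and at 13.9, 14.5 and 15.6 FPKM in SE-BDEV (0.12, interval -0.21 to 0.46), with Vehicle at 5.05 FPKM. Trem2, a lipid-sensing receptor, averaged 170 ± 9.79 and 172 ± 1.38 FPKM (0.02). Lrp1, a receptor for lipoproteins and apoptotic debris, was at 66.8, 62.0 and 67.7 against 71.4, 70.8 and 77.5 FPKM (0.16, interval 0.04 to 0.28), the only 1 of 25 kept phagocytosis receptors with an unadjusted p under 0.05. Of 33 kept lysosome genes 0 reached that limit, which 3.33% of all genes reached.

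Complement and microglial state genes gave small differences. C1qa, a chain of the first complement component, ran from 0.617 to 2.11 FPKM within CON-BDEV and from 1.28 to 1.78 FPKM in SE-BDEV (0.22, interval -0.25 to 0.70), and C3, the central component, differed by 0.00. Arg1, an arginine-consuming enzyme of alternative activation, differed by 0.06 and Tgfb1 by 0.08. Spp1, the most abundant of the disease-associated microglia genes, averaged 5889 ± 548 and 5906 ± 119 FPKM (0.01). Of the markers of microglia, Aif1, the actin-binding protein IBA1, was at 8.32, 8.04 and 9.25 FPKM in CON-BDEV and at 7.11, 7.22 and 6.56 FPKM in SE-BDEV (-0.26, interval -0.42 to -0.10), with Vehicle lower than both at 5.42 FPKM. It was the only 1 of 27 kept markers with an unadjusted p under 0.05, beside 3.33% of all genes.

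Across 39 gene lists, 0 had a member past the adjusted threshold. These lists held 756 kept genes, and the interval lay within 1.5-fold for 742 of them. In the 36 lists with at least 5 kept genes, median log2 differences ran from -0.06 (cytosolic ribosomal proteins) to 0.04. In some lists, libraries of 1 group lay on opposite sides of the mean. For sterol and fatty acid synthesis the median deviation was 0.12 in CON-BDEV replicate 1 and -0.15 in CON-BDEV replicate 3, and it was -0.15 in SE-BDEV replicate 1 and 0.10 in SE-BDEV replicate 3. For targets of ATF4, a factor that raises amino acid supply under stress, it was low in CON-BDEV replicate 1 (-0.16) and SE-BDEV replicate 3 (-0.18) and high in SE-BDEV replicate 1 (0.16). Atf4 itself followed, at 335, 448 and 421 FPKM in CON-BDEV and at 463, 411 and 333 FPKM in SE-BDEV. CON-BDEV replicate 1 and SE-BDEV replicate 3 also had the highest correlation of deviations from their group means over all genes among the 9 pairs across groups, 0.388.

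**Figure D5:**
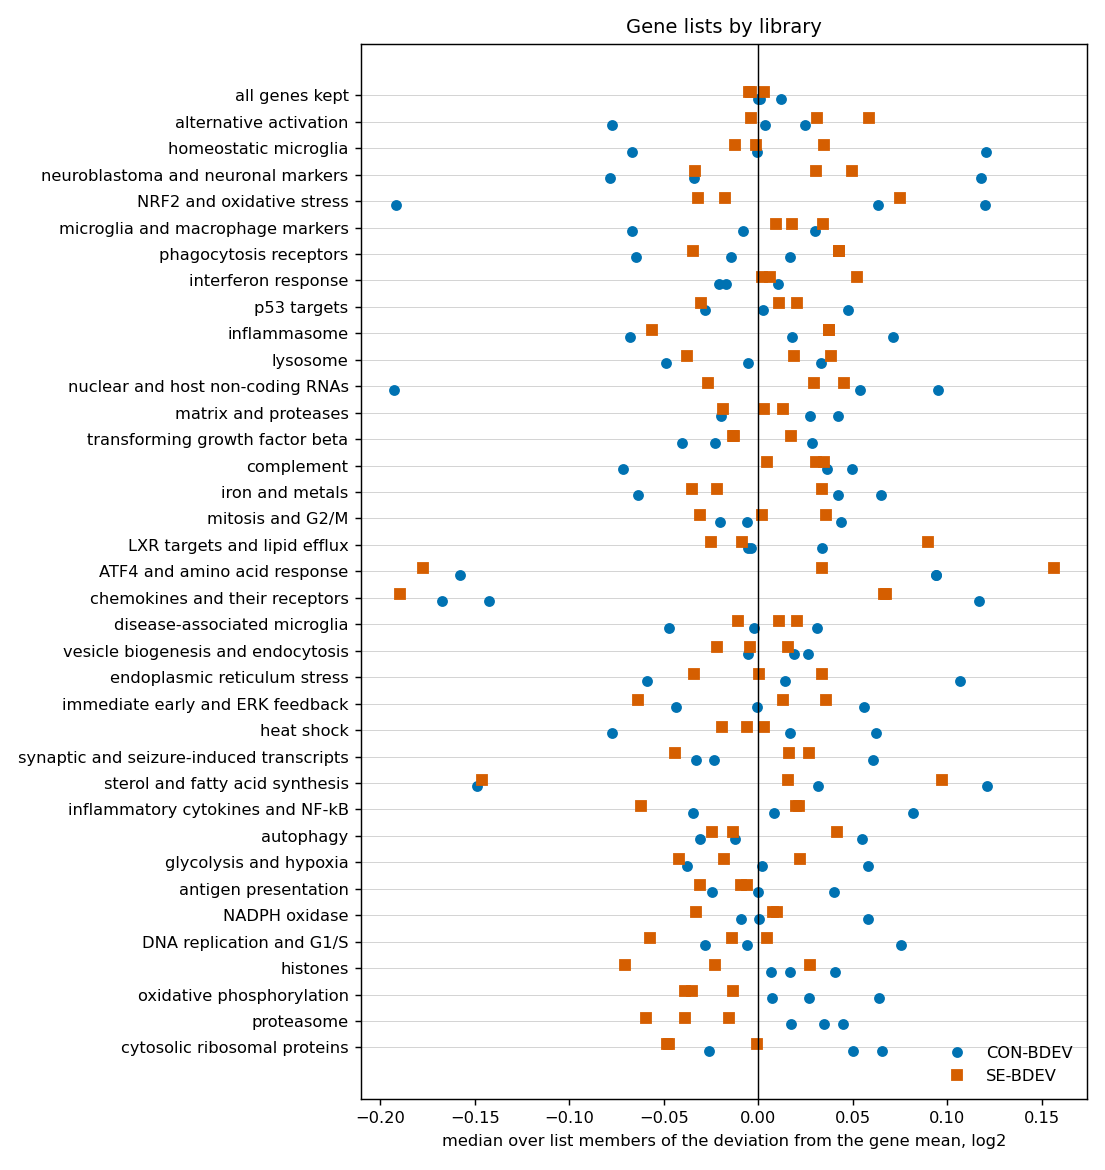
Median over the kept members of each of 36 gene lists, and over all genes kept, of the deviation from the gene's mean over 6 libraries (log2), with 1 point per library. Blue circles are CON-BDEV and orange squares SE-BDEV, and rows are ordered by the difference of the list, with the highest at the top; the groups overlap in every list shown except oxidative phosphorylation and proteasome.

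The lists at the low end hold the parts of large housekeeping complexes. Of 44 oxidative phosphorylation genes 38 had an estimate below 0, 8 were lower with an unadjusted p under 0.05 and 0 higher, and the median was -0.05. Ndufb10, a subunit of respiratory complex I, stood at 149, 153 and 162 FPKM in CON-BDEV and at 139, 130 and 137 FPKM in SE-BDEV (-0.19), and Ndufa2, also of complex I, differed by -0.29. Of 34 proteasome genes 33 were below 0 and 4 were lower at that limit, with a median of -0.05. Psme2, a subunit of the proteasome activator PA28, stood at 137, 142 and 148 against 115, 130 and 121 FPKM (-0.22). Of 45 cytosolic ribosomal protein genes 44 were below 0 and 4 were lower at that limit, with a median of -0.06; Rplp1, of the ribosomal stalk, averaged 2369 ± 280 and 2000 ± 89.9 FPKM (-0.24).

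None of these members passed the adjusted threshold. The medians of these lists stayed below 0 under all 20 other settings, which reuse the same libraries, but their size depended on scaling. After quantile normalization they were -0.01 for oxidative phosphorylation, -0.02 for the proteasome and -0.0057 for ribosomal proteins. Over all genes 2.52% were lower at that limit. The lists also hold mostly short transcripts: 33 of 44, 24 of 34 and 37 of 45 members lie among the 2619 genes with the shortest transcripts. Over all of these 2619 genes the median difference was -0.03 and 67.9% were below 0. The part of length in the medians and counts of these lists was not tested. By library, the median deviations of the oxidative phosphorylation list were 0.01 to 0.06 in CON-BDEV and -0.04 to -0.01 in SE-BDEV, and those of the proteasome list were 0.02 to 0.04 and -0.06 to -0.02, without overlap in either. Those of the ribosomal list overlapped, with CON-BDEV replicate 1 at -0.03.

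Transcripts typical of other brain cells were few in both groups. Of 23 synaptic and seizure-induced transcripts 7 were kept and 9 were listed at 0 in all 6 libraries. Arc, which neurons induce in seizures, stood at 1.69, 1.40 and 1.502 FPKM in CON-BDEV and at 1.07, 1.33 and 1.30 FPKM in SE-BDEV, with Vehicle at 1.60 FPKM. Its log2 difference was -0.18 (interval -0.39 to 0.02), with the estimate on the side of CON-BDEV. Of the 5 neuronal markers kept, Gata3, also a lymphoid transcription factor, was at 3.28, 3.03 and 3.44 FPKM in CON-BDEV and at 4.22, 3.59 and 3.80 FPKM in SE-BDEV (0.20, interval 0.02 to 0.37). Nefh and Uchl1 each differed by -0.04. Only 2 of 12 astrocyte markers, 2 of 12 oligodendrocyte and myelin markers and 2 of 13 endothelial, pericyte and blood markers were kept. Of these 6, 0 had an unadjusted p under 0.05, beside 3.33% of all genes. In bulk libraries fewer cells of a type and less RNA per cell cannot be told apart.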

How the data were processed

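The 6 vesicle libraries and 3 Vehicle libraries were grouped by their titles. Per the submitters' processing notes, TopHat2, Cuffdiff and genome build mm9 were used, with no version, and the gene annotation is not given in the sources used here. The authors deposited FPKM values per gene and library in 1 table for each vesicle group with Vehicle, and tables with the log2 fold change, test score, p-value and q-value of each group against Vehicle, per the file headers. The Vehicle libraries occur in both FPKM tables and differ by constant factors, so SE-BDEV was divided by their geometric mean of 1.00044. FPKM values are not counts, so log2(FPKM + 1) was fitted with R 4.3.3 and limma 3.58.1 (eBayes with a mean-variance trend, 2-sided, Benjamini-Hochberg, threshold 0.05) on the 6 vesicle libraries. Vehicle was not in the fit, because its libraries varied less (median SD 0.0500 on the log2 scale, against 0.0777 in CON-BDEV and 0.0647 in SE-BDEV). The fit was also run on simulated data, drawn as independent normal values for each gene. Such data lack deviations that libraries share across genes, and the outcome is not reported here.

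Depth was estimated from the smallest steps of 26 genes with at least 4000 nt of exons. Gene spans in the mm9 tables matched a start counted from 0, and printed starts have 1 added. Named genes are, in each direction, the 12 with the lowest p whose groups do not overlap, since none passed (clone-named, predicted and merged entries passed over), the 2 most abundant members and the lowest-p member of each of 39 lists, and 25 microglial and response genes; Ndufa2, P2ry12, Cx3cr1 and the small RNAs with listed zeros were chosen after their values were seen. A few genes that the rule names are not reported here. The genes, lists and tests were chosen with earlier results of these data known. Each result was recomputed under 19 other settings, and under 1 added after the data were seen. Promoters came from RefSeq (GRCm38.p6).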

Additional observations from a re-analysis of the deposited data

How the results depend on the processing

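The count of 0 genes past the adjusted threshold stayed at 0 under 16 of 19 other settings and without genes listed at 0 in any library, an alternative chosen after seeing the data. The exceptions were 1 gene each. Scarna13 passed as higher with only the libraries whose code starts with 2 (1 call, 1 higher) and without CON-BDEV replicate 1, and Snora23, listed at 0 in 4 of the 6 libraries, passed as lower without CON-BDEV replicate 3 (adjusted p = 3.15e-07). With 1 library left out, calls ran from 0 to 1 (0 to 1 higher, 0 to 1 lower), genes at an unadjusted p under 0.05 from 253 to 682 (682 without CON-BDEV replicate 1), and genes within 1.5-fold from 10347 to 10387. The unadjusted count was 351, but 706 with only the libraries whose code starts with 2 and 597 with no filter on low values. Other settings gave 279 to 510, the highest with Vehicle in the fit. Replicate numbers did not pair the libraries (correlations of -0.15, 0.19 and -0.21 between libraries of the same number), and with the number as a block there were 0 calls and 306 genes at an unadjusted p under 0.05. Genes within 1.5-fold numbered 10183 with a pseudocount of 0.1 and 10317 with only the libraries whose code starts with 2, against 10424. List medians turned sign between settings in 31 of 39 lists, within -0.19 to 0.15. Oxidative phosphorylation, proteasome and cytosolic ribosomal proteins were among the lists that did not turn. Of single genes, counted as turned only where a value had an unadjusted p under 0.05, Atf4 turned, to -0.23 with only the libraries whose code starts with 2; the cause was not tested. At 58.4 to 65.9 fragments behind 1 FPKM in 2 kb and 3 libraries a group, the median interval reached 0.15 (log2) on either side.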

Other observations

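The differences between the vesicle groups were also set beside transcript length, a split chosen after the values were seen. Of the 10525 genes, 10473 (99.5%) had a length, taken from the longest annotated transcript (GENCODE vM21). Among the 2619 genes with the shortest transcripts (128 to 2180 nt) the median log2 difference was -0.03, 67.9% of genes were below 0, and 170 were lower and 20 higher at an unadjusted p under 0.05. Among the 2618 with the longest (4745 to 123179 nt) the median was 0.02, 30.9% were below 0, and 6 were lower and 38 higher. By library, median deviations over the shortest were 0.0045, 0.035 and 0.016 in CON-BDEV and -0.014, -0.023 and -0.011 in SE-BDEV, without overlap. Over the longest they were -0.0067, -0.040 and 0.0111 in CON-BDEV and 0.0164, 0.0125 and 0.0109 in SE-BDEV. CON-BDEV replicate 2 had the highest value of the 6 libraries over the shortest and the lowest over the longest. The part of length in the result was not tested.

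Some of the largest estimates belonged to small nucleolar RNAs and the host gene Snhg9, whose listed loci are shared: Snora78 with Snhg9, Snora23 with Ipo7, and Snora81 with Eif4a2 and Rfc4, so their values are uncertain. Snora78, a small nucleolar RNA, was listed at 836 FPKM in CON-BDEV replicate 1 and at 0 in the other 8 libraries. Snora23 was at 19.98 and 20.2 FPKM in CON-BDEV replicates 1 and 2, at 0 in CON-BDEV replicate 3 and in all SE-BDEV libraries, and at 23.2, 15.2 and 0 FPKM in Vehicle. Snora81 was at 118, 118 and 122 FPKM in CON-BDEV and at 0, 389 and 110 FPKM in SE-BDEV. Snhg9 was at 22.1 FPKM in SE-BDEV replicate 1 and 32.4 FPKM in Vehicle replicate 2 and at 0 elsewhere. The files do not tell a failed estimate from an absent transcript.

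Ftl1, the ferritin light chain, was listed at 0 in all 3 CON-BDEV libraries and at 13318 to 14350 FPKM in SE-BDEV, and Fth1, the heavy chain, at 0 in all 6. The authors' status for these zeros is that of too many fragments, so they are no measure of expression.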
